A study of Mus musculus with 8 samples.

Results

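The 10 genes described here encode parts of the antigen receptor signalling chain of T cells and cytotoxic genes shared by T and natural killer (NK) cells. They are Cd3e, Cd3g, Cd247, Lck, Zap70, Lat, Prkcq, Tox, Gzmb and Nkg7. They were chosen by symbol, and each matched 1 of the 37991 gene identifiers in the table of counts. RNA was sequenced from Flt3- LSK cells, lineage-negative, Sca-1-positive, Kit-positive cells of the bone marrow, among which are the haematopoietic stem cells. The mice were of the strain C57BL/6J. The Mut-labelled samples are described in the labels as deficient for Runx1, a transcription factor gene of blood cell development, and the WT samples carried floxed Runx1 (Runx1 f/f). The sources used here do not give the Cre line, the deleted part of Runx1 or the age of the mice. Each genotype had 2 samples of 24000 sorted cells, and by its name each sample gave a library from polyA-selected RNA (here mRNA library) and a library from total RNA, 8 libraries in all. The labels do not say whether a genotype's samples came from separate animals, so p-values reflect a spread between samples that may be technical only.

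The mRNA libraries held 35096252 to 37924699 gene counts each. The total RNA libraries, where ribosomal RNA took 93.3 to 94.5% of all counts, held 967694 to 1218437. Runx1 had 26208 and 34406 counts in the Mut-labelled mRNA libraries, against 7590 and 7934 in the WT mRNA libraries. In the total RNA libraries it had 765 and 1081 counts in the Mut-labelled samples, against 239 and 238 in WT. Runx1 was thus higher in the libraries labelled Mut, with log2 fold changes of 2.05 (SE 0.18) and 1.88 (SE 0.16), which goes against the label. A count over the whole gene does not check a deletion within it, so every direction given here rests on the labels. Of the genes that define the sorted fraction, Kit stood between 884 and 1100 CPM in the 4 mRNA libraries (CPM, counts scaled to a common library size). Ly6a, the gene of Sca-1, stood at 32.5 and 26.0 CPM in Mut-labelled and 23.7 and 38.6 CPM in WT libraries. Flt3, whose protein was sorted against, stood at 57.3 and 87.6 CPM in Mut-labelled and 117 and 155 CPM in WT libraries. Of 7 surface genes listed for these cells, 5 did not pass the edgeR test described below. Cd48 was higher (181 and 179 CPM in Mut-labelled, 47.6 and 42.6 CPM in WT libraries) and Procr lower (4.06 and 6.89 CPM against 21.7 and 26.3 CPM).

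In T cells the receptor for antigen has no signalling domain of its own and relies on the CD3 chains, which carry tyrosine motifs. The kinase Lck phosphorylates these motifs, Zap70 docks on them and phosphorylates the adaptor Lat, and Lat gathers the enzymes that switch on calcium, Ras and protein kinase C theta (Prkcq). NK cells use several of the same parts behind their own receptors, and both cell types kill with granules that hold granzymes. Stem cells and early progenitors carry no antigen receptor, while Lat and protein kinase C theta also act in mast cells and platelets.

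The promoters of the genes were searched for TGTGGT and TGCGGT, letters of the core that RUNX proteins bind, on both strands, because Runx1 is the gene under study. RefSeq promoter windows (build GRCm38.p6, from 250 bases before to 50 after the transcription start) were at hand for 9 of the 10 genes, with none for Tox. Of 12 windows, 5 held a match, 1 each for Lck, Zap70, Lat, Gzmb and Nkg7, beside 22.4% of all 32851 windows of the same length. The windows of 4 of these genes follow, leaving out Zap70, whose levels overlapped between the genotypes, and the capitals mark the matched letters or their complement ACCACA. A match describes the letters in the window and is not a measured binding site.

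Lck (chr4:129573592-129573891, minus strand): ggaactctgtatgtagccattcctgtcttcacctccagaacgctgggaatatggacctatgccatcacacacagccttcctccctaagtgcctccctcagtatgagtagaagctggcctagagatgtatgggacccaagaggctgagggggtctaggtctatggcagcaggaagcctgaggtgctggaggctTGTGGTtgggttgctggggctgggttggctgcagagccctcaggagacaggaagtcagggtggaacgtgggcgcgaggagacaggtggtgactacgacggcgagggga

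Lat (chr7:126369519-126369818, minus strand): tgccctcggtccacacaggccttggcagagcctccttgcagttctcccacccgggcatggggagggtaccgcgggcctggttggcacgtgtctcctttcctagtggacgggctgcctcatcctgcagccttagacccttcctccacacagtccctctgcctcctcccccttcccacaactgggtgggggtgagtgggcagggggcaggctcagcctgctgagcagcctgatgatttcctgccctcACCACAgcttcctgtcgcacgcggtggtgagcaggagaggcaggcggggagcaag

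Nkg7 (chr7:43436888-43437187, plus strand): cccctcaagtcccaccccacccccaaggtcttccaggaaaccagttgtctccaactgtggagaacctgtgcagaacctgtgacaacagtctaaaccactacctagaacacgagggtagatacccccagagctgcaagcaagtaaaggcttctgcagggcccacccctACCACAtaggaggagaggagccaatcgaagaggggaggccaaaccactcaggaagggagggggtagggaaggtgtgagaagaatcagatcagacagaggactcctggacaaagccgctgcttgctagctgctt

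Gzmb (chr14:56262285-56262584, minus strand): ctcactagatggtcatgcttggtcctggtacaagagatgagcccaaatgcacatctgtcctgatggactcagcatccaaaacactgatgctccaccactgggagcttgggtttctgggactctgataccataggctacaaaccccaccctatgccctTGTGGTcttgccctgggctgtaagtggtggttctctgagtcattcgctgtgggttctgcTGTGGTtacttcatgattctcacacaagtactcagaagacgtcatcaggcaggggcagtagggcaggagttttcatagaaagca

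In the Lck window the match begins 58 bases before the start, on the strand of the gene. Gzmb has 2 matches on its own strand, 93 and 34 bases before the start. The end of the Gzmb window was not found in GENCODE M21 transcripts of the gene, unlike those of the Lck, Lat and Nkg7 windows. Its strand and start thus rest on RefSeq alone. In Nkg7 and Lat the match lies on the opposite strand, 83 and 5 bases before the start. The second Lck window and those of Prkcq, Cd247, Cd3g and Cd3e do not hold these letters. The genes with a match stood on both sides of the comparison: Lat was higher in Mut-labelled cells, and Lck and Nkg7 were lower.

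Before any comparison, the 10 genes differed widely in level. Per kilobase of exon, the mean level in Mut-labelled mRNA libraries was 52.2 CPM for Lat, 25.3 for Nkg7, 13.1 for Prkcq and 0.705 for Lck. It was 0.458 CPM per kilobase for Tox, 0.415 for Cd3e, 0.230 for Zap70, 0.180 for Cd3g, 0.132 for Cd247 and 0.0796 for Gzmb. In WT mRNA libraries the order was Nkg7 at 64.8 CPM per kilobase, Lat at 19.1, Prkcq at 7.84 and Lck at 6.56. Below them in WT came Tox at 2.40 CPM per kilobase, Gzmb at 2.37, Cd247 at 0.374, Zap70 at 0.207, Cd3e at 0.183 and Cd3g at 0.0724. Neighbours whose libraries overlapped in the Mut-labelled order were Tox with Cd3e, Cd3g with Cd247 and Cd247 with Gzmb, and in the WT order Tox with Gzmb and Zap70 with Cd3e. Lat and Nkg7 thus headed the order in both genotypes and changed places, and the CD3 chains and Zap70 lay at the low end of both. Exon lengths came from GENCODE M21, so the order across genes rests on that annotation.

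**Figure D1:**
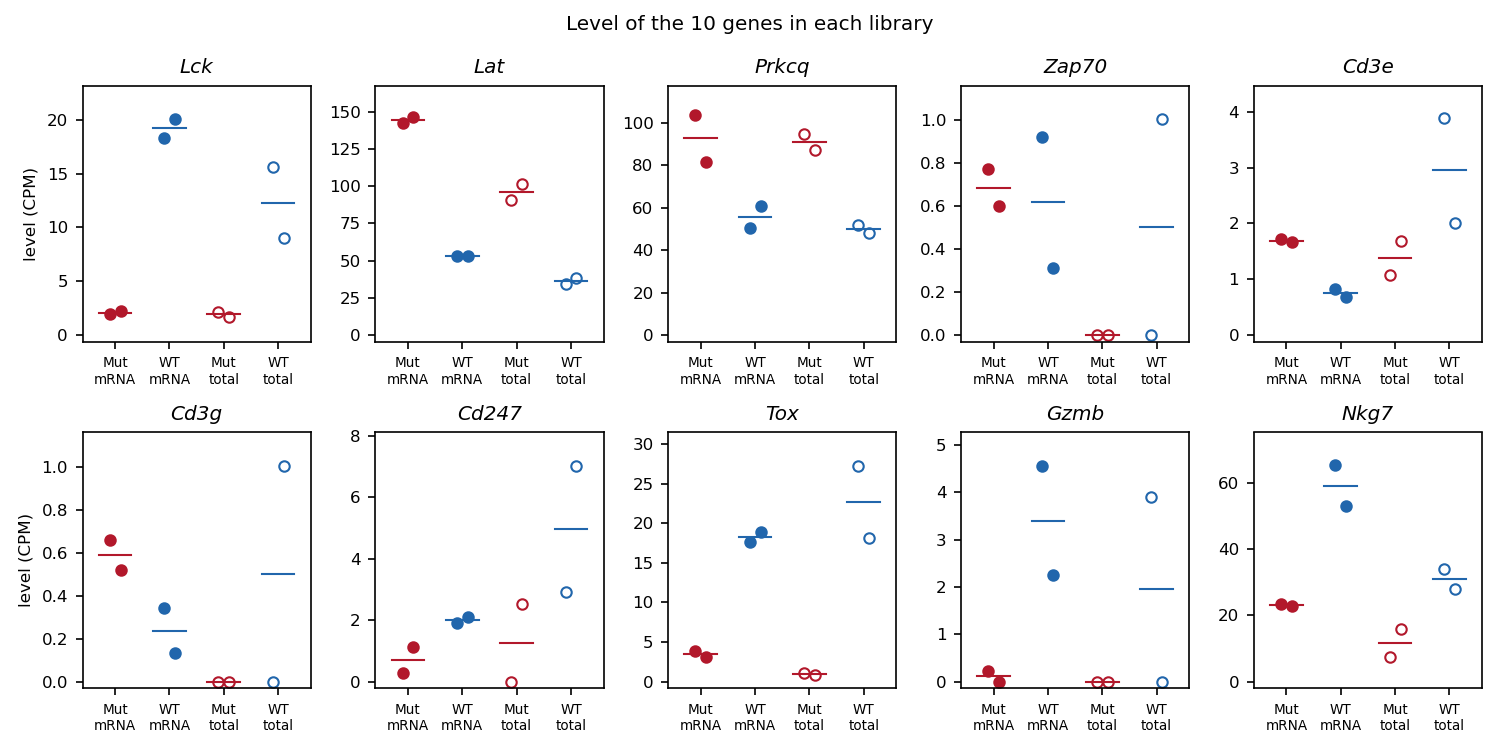
Level of each of the 10 genes in CPM on a linear axis that differs between panels, with 1 point per library (Mut, Mut-labelled; filled, mRNA; open, total RNA) and a line at the mean of 2 libraries. In the mRNA panels the Mut-labelled and WT points are apart for every gene but Zap70, with Lat higher and Lck, Tox and Nkg7 lower in the Mut-labelled libraries.

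In the mRNA libraries Lat rose, Lck, Tox and Nkg7 fell, and the other 6 genes did not pass the test. All 10 were tested, and 1 was called higher and 3 lower in Mut-labelled cells, at an adjusted p under 0.05 in edgeR's quasi-likelihood test with Benjamini-Hochberg adjustment over all genes. Of all 17128 genes tested, 3.64% were called, 1.75% higher and 1.89% lower. By range, the 2 Mut-labelled libraries lay above both WT libraries for 4 of the 10 genes (21.4% of all genes), below them for 5 (23.1% of all genes) and overlapped them for 1. The median log2 fold change was -0.60 over the 10 genes and -0.01 over all genes. Gzmb passed the filter on low counts through its WT libraries alone, so this median is a description only.

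The CD3 chains, which carry the signal of the receptor into the cell, were low and none passed the test. Cd3e had 60 and 61 counts in Mut-labelled mRNA libraries (1.71 and 1.67 CPM), against 31 and 26 in WT (0.817 and 0.680 CPM), and the log2 fold change was 1.17 (SE 0.50, edgeR adjusted p = 0.346). Cd3g had 23 and 19 counts in Mut-labelled libraries and 13 and 5 in WT, and the log2 fold change was 1.30 (SE 0.91, edgeR adjusted p = 0.625). Both genes were higher in each Mut-labelled library than in either WT library, at levels under 2 CPM. Cd247, the zeta chain, had 10 and 41 counts in Mut-labelled libraries (0.286 and 1.12 CPM), against 72 and 80 in WT (1.90 and 2.09 CPM). Its log2 fold change was -1.496 (SE 0.72, edgeR adjusted p = 0.419), with both Mut-labelled libraries below both WT libraries and far apart from each other. Its exons share 3007 bp with Pou2f1 on the opposite strand and 206 bp with the transcript Gm16565 on its own strand, which had 47 and 103 counts in Mut-labelled and 164 and 206 in WT mRNA libraries. Since the use of strand in counting is not stated, the source of the few Cd247 counts is uncertain. The total RNA libraries held 7 or fewer counts per library for each of these 3 genes and gave no test. There Cd3e had 1 and 2 counts in Mut-labelled and 4 and 2 in WT samples, and WT over Mut-labelled was 2.10 with a 95% counting interval of 0.448 to 12.96. Cd247 had 0 and 3 counts in Mut-labelled and 3 and 7 in WT samples, a ratio of WT over Mut-labelled of 3.49 (0.900 to 19.8).

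Among the kinases, Lck fell and Zap70 was low in both genotypes. Lck, the Src family kinase that starts signalling at the receptor, had 68 and 80 counts in Mut-labelled mRNA libraries (1.94 and 2.19 CPM), against 694 and 769 counts in WT (18.3 and 20.1 CPM). Both Mut-labelled libraries were far below both WT libraries, and the libraries of a genotype were close together. The log2 fold change was -3.21 (SE 0.26, edgeR adjusted p = 0.00631), a level 9.28-fold higher in WT. In the total RNA libraries Lck had 2 and 2 counts in Mut-labelled and 16 and 9 in WT samples, the same order, but too few counts for the filter of the test. Zap70, the kinase that docks on the phosphorylated chains, had 27 and 22 counts in Mut-labelled mRNA libraries and 35 and 12 in WT. These ranges overlapped, and its log2 fold change was 0.15 (SE 0.81, edgeR adjusted p = 0.970). In total RNA the only Zap70 count was 1 in a WT sample, and the same was true of Cd3g.

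Lat, the membrane adaptor that Zap70 phosphorylates in T cells, rose in both kinds of library under the scaling used here. It had 142 and 146 CPM in Mut-labelled mRNA libraries, against 52.9 and 52.9 CPM in WT (4980 and 5351 counts against 2008 and 2022). The difference between genotypes was far larger than that within them, the log2 fold change being 1.45 (SE 0.12, edgeR adjusted p = 0.00653), or 2.73-fold. In total RNA it had 84 and 121 counts in Mut-labelled samples (90.5 and 101 CPM) and 35 and 38 in WT samples (34.1 and 38.1 CPM). The log2 fold change there was 1.41 (SE 0.23, edgeR adjusted p = 0.000802), and the samples did not overlap. Scaled to ERCC spike-ins (synthetic RNAs added to each sample), Lat stood at 0.31 in total RNA and did not pass (edgeR adjusted p = 0.632), where the median of all genes was -1.10.

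Prkcq, protein kinase C theta, acts below Lat on the way to NF-kB. It had 104 and 81.4 CPM in Mut-labelled mRNA libraries, against 50.2 and 60.8 CPM in WT. Both Mut-labelled libraries were above both WT libraries, but the log2 fold change of 0.74 (SE 0.18) did not pass (edgeR adjusted p = 0.0987, against 0.00780 in DESeq2). In total RNA Prkcq had 94.8 and 87.2 CPM in Mut-labelled samples and 51.6 and 48.2 CPM in WT samples, and rose, the log2 fold change being 0.86 (SE 0.22, edgeR adjusted p = 0.0286). Leaving out Mut-labelled replicate 1 ended that call (0.81, edgeR adjusted p = 0.108), as did leaving out WT replicate 2 (0.82, edgeR adjusted p = 0.0626) and using DESeq2 (adjusted p = 0.549), and under ERCC scaling the value turned to -0.22.

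Tox, an HMG-box nuclear factor needed for T and NK cell development, fell in mRNA libraries and had few counts in total RNA. It had 135 and 114 counts in Mut-labelled mRNA libraries (3.86 and 3.12 CPM), against 669 and 721 in WT (17.6 and 18.9 CPM), and the log2 fold change was -2.39 (SE 0.26, edgeR adjusted p = 0.0123). The level was 5.23-fold higher in WT, and the 2 libraries of a genotype lay close to each other. In total RNA Tox had 1 and 1 counts in Mut-labelled samples, against 28 and 18 in WT samples, and WT over Mut-labelled was 24.1 (95% counting interval 6.31 to 205). The fitted log2 fold change was -4.42 (SE 0.70, edgeR adjusted p = 0.000525), and it depends on how a count this low is fitted. In total RNA Tox passed the filter through the WT samples alone. Entry in this way favours genes that are lower in Mut-labelled samples, so nothing is read from the call.

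The cytotoxic pair were both lower in each Mut-labelled mRNA library than in either WT library, and of them Nkg7 passed the test. Nkg7, a granule membrane protein gene of NK and T cells, had 23.4 and 22.8 CPM in Mut-labelled mRNA libraries, against 65.6 and 53.0 CPM in WT (819 and 834 counts against 2488 and 2025). The log2 fold change was -1.36 (SE 0.17, edgeR adjusted p = 0.0180), or 2.56-fold higher in WT. In total RNA it had 7 and 19 counts in Mut-labelled and 35 and 28 in WT samples, with a log2 fold change of -1.35 (SE 0.41) that did not pass (edgeR adjusted p = 0.0724). It passed in 4 of 9 alternatives, which were leaving out Mut-labelled replicate 2 (-2.02, edgeR adjusted p = 0.0223), no filter (-1.36, edgeR adjusted p = 0.0240), ERCC scaling (-2.61, edgeR adjusted p = 0.00980) and the replicate block (-1.37, edgeR adjusted p = 0.00921). Gzmb, the granzyme that triggers death of the target cell, had 8 and 0 counts in Mut-labelled mRNA libraries, against 173 and 86 in WT (0.229 and 0 CPM against 4.56 and 2.25 CPM). The fitted log2 fold change of -4.87 (SE 1.16) did not pass (edgeR adjusted p = 0.0984). Its call changed with the setting, with DESeq2 at an adjusted p of 1.6e-05 and edgeR at 0.00597 to 0.197 with 1 library left out. Gzmb entered the test through its WT libraries alone, and without Mut-labelled replicate 1 that arm is 1 library with no counts, whose spread is taken from the WT libraries, so these passes are not read as support. In total RNA its only counts were 4 in WT replicate 1.

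**Figure D2:**
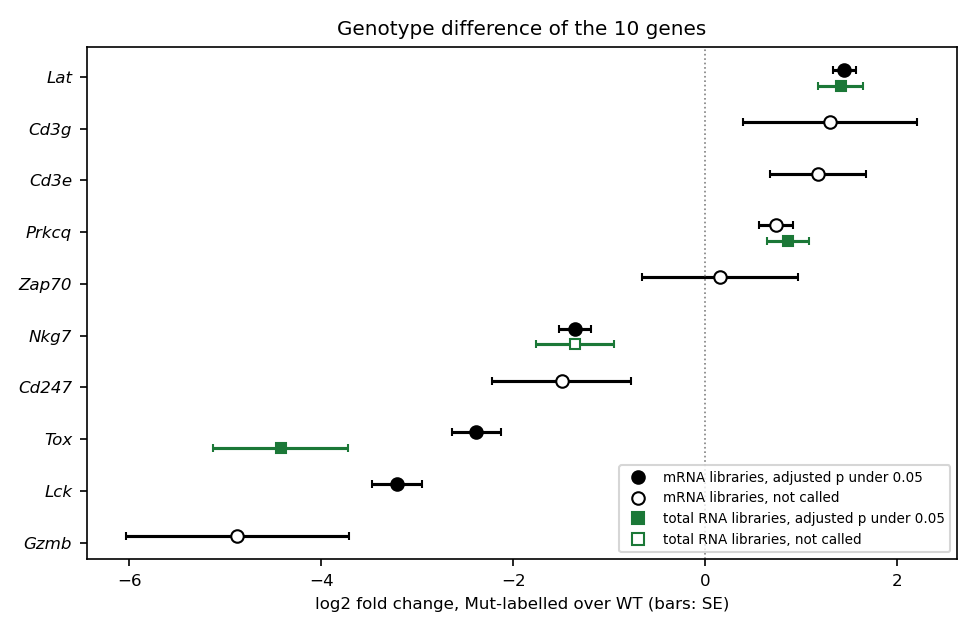
Log2 fold change of each gene, Mut-labelled over WT, with SE as bars, in mRNA libraries (circles) and, for the 4 genes tested there, in total RNA libraries (squares), with filled symbols for an edgeR adjusted p under 0.05. Lat is filled and above 0 in both kinds of library, and Tox filled and below 0, in total RNA after passing the filter through WT samples alone, while Prkcq is filled in total RNA alone and Lck and Nkg7 in mRNA alone.

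In the total RNA libraries, with far fewer counts, 4 of the 10 genes could be tested. Lat and Prkcq were called higher and Nkg7 was not called. Tox was called lower, but it had entered the test through the WT samples alone. Of all 10546 genes tested there, 4.22% were called, 2.54% higher and 1.68% lower. By range, the Mut-labelled samples lay above WT for 2 of the 10 genes, below WT for 5 and overlapped for 3. Over the 10546 genes tested, 22.5% lay above and 21.4% below, but Lck, Cd3e and Cd247, which lay below, were not tested. Among the genes tested, Lat and Prkcq lay above and Tox and Nkg7 below. An interaction term, fitted over all 8 libraries, asked whether the genotype difference depended on the kind of library, and in it 0 of 17416 genes were called by edgeR (0%) and 687 had an unadjusted p under 0.05. The interaction was -2.15 for Tox (SE 0.74, unadjusted p = 0.0145, edgeR adjusted p = 1.0), 0.01 for Lat (SE 0.22), 0.17 for Prkcq (SE 0.27), 0.04 for Nkg7 (SE 0.42) and 0.56 for Lck (SE 0.71). With the sorted sample as a replicate block, since each sample gave both kinds of library, 111 genes were called. Tox was not among them (-2.13, edgeR adjusted p = 0.739).

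Scaling to the ERCC spike-ins shifted the median of all genes to -0.38 in the mRNA and -1.10 in the total RNA libraries, so changes on that scale are read against these medians. On it Lck stood at -3.58, Tox at -2.84, Nkg7 at -1.68 and Lat at 1.08 in the mRNA libraries, in the same directions. None of the 4 passed there (edgeR adjusted p = 0.133, 0.411, 0.999 and 0.999). Gzmb stood at -5.55 (edgeR adjusted p = 0.0206), having passed the filter through WT libraries alone. The ERCC counts themselves differed within a genotype, at 312754 and 142196 in Mut-labelled and 243670 and 118723 in WT mRNA libraries. In total RNA they were far fewer and also uneven, at 7471 and 16620 in Mut-labelled and 4293 and 5649 in WT libraries. Values on the ERCC scale in total RNA rest on these counts.

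Relatives of these genes did not move as one. In the Src family, where Lck is the T cell member, Lyn, a kinase of myeloid and B cells, rose with 110 and 108 CPM in Mut-labelled mRNA libraries and 63.0 and 59.1 CPM in WT libraries (0.84, SE 0.12, edgeR adjusted p = 0.0256). Fyn, which acts beside Lck in T cells, was near 0 at 0.02 (SE 0.12) and stood at 129 and 126 CPM in Mut-labelled and 126 and 127 CPM in WT libraries. Fgr (1.59), Src (0.22) and Yes1 (-0.52) did not pass, and Blk was too low to test. Syk, the relative of Zap70 in myeloid and B cells, had 422 and 483 CPM in Mut-labelled and 327 and 322 CPM in WT libraries, and did not pass (0.48, edgeR adjusted p = 0.171). Zap70 itself stayed under 1 CPM in all 4 mRNA libraries.

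Of the other protein kinase C genes, Prkca, the conventional alpha form, rose with 89.7 and 102 CPM in Mut-labelled against 49.7 and 57.5 CPM in WT mRNA libraries (0.84, SE 0.14, edgeR adjusted p = 0.0409). Prkch, the eta form, which like theta needs no calcium, fell with 42.2 and 43.6 CPM in Mut-labelled against 71.3 and 74.0 CPM in WT libraries (-0.76, SE 0.12, edgeR adjusted p = 0.0357). The other 5 ranged from -0.80 for Prkcb to 0.40 for Prkcz and did not pass. Among adaptors built like Lat, Lax1, which dampens antigen receptor signalling, fell with 7.29 and 11.6 CPM in Mut-labelled against 31.8 and 51.5 CPM in WT libraries (-2.14, SE 0.34, edgeR adjusted p = 0.0342). Lat2, the adaptor of mast and B cells, stood at 1.12 (SE 0.22) and did not pass (edgeR adjusted p = 0.0600), nor did Pag1 (-0.26) or Lime1 (-0.30), and Sit1 was too low to test. Of the Tox relatives, Tox2 (-1.59), Tox3 (-1.25) and Tox4 (0.20) did not pass.

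**Figure D3:**
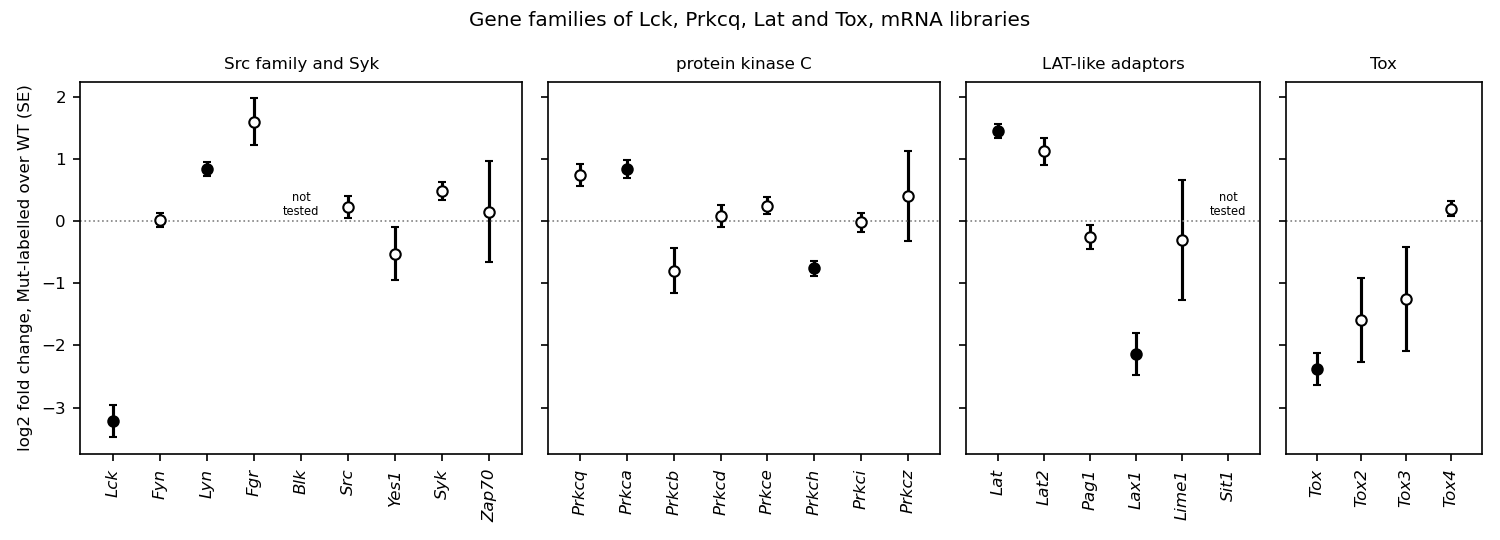
Log2 fold change in mRNA libraries, Mut-labelled over WT, with SE as bars, for the gene families of Lck with Syk and Zap70, of Prkcq, of Lat and of Tox, with filled points for an edgeR adjusted p under 0.05. Filled points lie on both sides of 0 in the first 3 families, from -3.21 for Lck to 1.45 for Lat.

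A wider list of 136 other genes of T and NK cell signalling gave 118 tested in the mRNA libraries, of which 8 rose and 6 fell (11.9% called, beside 3.64% of all genes), with a median log2 fold change of 0.11. In the total RNA libraries 68 were tested, and 8 rose and 4 fell (17.6% called, beside 4.22% of all genes), with a median of 0.23. Among these calls, Clec1b and Ms4a2 (higher) and Sla2 and Lax1 (lower) passed the filter through a single genotype. With ERCC scaling 0 rose and 0 fell in mRNA libraries, and 0 rose and 5 fell in total RNA, with medians of -0.27 and -0.85. DESeq2 called 15 higher and 11 lower in mRNA libraries and 5 higher and 1 lower in total RNA, and without Mut-labelled replicate 2 the total RNA calls were 4 higher and 3 lower. The lists were chosen with results of these data known, so the counts are descriptions.

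Among kinases, adaptors and phosphatases close to the receptor, 3 of 29 tested rose and 2 fell in mRNA libraries, with a median of 0.11 (on the ERCC scale -0.25, which is 0.14 above the median of all genes). Lcp2 (SLP-76), the partner adaptor of Lat, had 190 and 229 CPM in Mut-labelled against 105 and 98.3 CPM in WT libraries, and the log2 fold change was 1.04 (edgeR adjusted p = 0.0249). Sla, an adaptor that promotes loss of the receptor from the surface, had 180 and 179 CPM in Mut-labelled against 76.7 and 77.6 CPM in WT libraries (1.22, edgeR adjusted p = 0.00906). Ubash3a, a suppressor of T cell receptor signalling, had 68.0 and 83.8 CPM in Mut-labelled against 32.9 and 30.3 CPM in WT libraries (1.26, edgeR adjusted p = 0.0180). These 3 rose in total RNA too, with log2 fold changes of 1.20, 1.48 and 1.501 in that order. With ERCC scaling they stood there at 0.11, 0.38 and 0.45 and none passed (edgeR adjusted p = 0.860, 0.546 and 0.492). Sla2, the relative of Sla, went the other way with 7.43 and 7.47 CPM in Mut-labelled against 23.7 and 28.0 CPM in WT libraries (-1.79, edgeR adjusted p = 0.0167), and Lax1 is given above. Both had lower values in total RNA as well, at -1.93 and -2.16. They passed the filter there through the WT samples alone, so nothing is read from these calls. The mRNA call of Lcp2 was lost without WT replicate 1 (adjusted p = 0.0529) or WT replicate 2 (adjusted p = 0.0557), that of Sla2 in total RNA without Mut-labelled replicate 2 (-1.63, adjusted p = 0.211) or WT replicate 2 (-1.70, adjusted p = 0.157), and that of Lax1 in total RNA without WT replicate 2 (-1.22, adjusted p = 0.425).

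Further from the receptor, 1 of 14 tested fell in mRNA libraries. It was Nfatc2, a transcription factor switched on by calcium, with 18.8 and 26.3 CPM in Mut-labelled against 49.7 and 59.6 CPM in WT libraries (-1.28, edgeR adjusted p = 0.0418), and -1.08 in total RNA (edgeR adjusted p = 0.0180, lost without Mut-labelled replicate 1 at 0.0548 or WT replicate 2 at 0.0668). Dgkz, a lipid kinase that damps diacylglycerol signals, rose in total RNA (0.62, turning to -0.52 with ERCC scaling, edgeR adjusted p = 0.0403, lost without Mut-labelled replicate 2 at 0.416, WT replicate 1 at 0.0589 or WT replicate 2 at 0.127) and stood at 0.65 in mRNA libraries (edgeR adjusted p = 0.137). In the list of ITAM adaptors and of platelet and mast cell receptors, which signal through Syk, Lat or Btk, 2 of 9 tested rose. Clec1b, a platelet receptor, had 38.6 and 28.6 CPM in Mut-labelled against 1.03 and 1.96 CPM in WT libraries, and the log2 fold change was 4.49 (edgeR adjusted p = 0.00784). Btk, a Tec family kinase of myeloid and B cells, had 200 and 212 CPM in Mut-labelled against 118 and 106 CPM in WT libraries (0.88, edgeR adjusted p = 0.0289). In total RNA 3 of 6 tested were called higher, Clec1b (3.19), Btk (0.79, turning to -0.31 with ERCC scaling) and Ms4a2 (3.45), the beta chain of the IgE receptor. Clec1b and Ms4a2 passed the filter there through the Mut-labelled samples alone, so nothing is read from their calls. Fcer1a, the alpha chain of the IgE receptor, ran the other way, with 0 and 7 counts in Mut-labelled and 76 and 55 in WT mRNA libraries. It did not pass (-4.11, SE 1.21, edgeR adjusted p = 0.161) and had entered the test through WT libraries alone. Ms4a2 stood at 34.9 and 103 CPM in Mut-labelled and 12.1 and 8.48 CPM in WT mRNA libraries and did not pass there (2.74, edgeR adjusted p = 0.0571). Its call in total RNA rested on Mut-labelled replicate 2 (without it 1.80, adjusted p = 0.580), and Clec1b lost its call there when Mut-labelled replicate 1 (3.01, adjusted p = 0.110) or WT replicate 1 (2.21, adjusted p = 0.0779) was left out. Btk lost its mRNA call without either WT replicate (adjusted p = 0.0799 and 0.136), and its total RNA call without either Mut-labelled replicate (0.0884 and 0.0675) or WT replicate 2 (0.149).

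In the cytotoxic granule list 1 of 13 tested fell, Ctsw, a cysteine protease gene of NK and CD8 T cells. It had 2.74 and 2.74 CPM in Mut-labelled against 10.3 and 12.5 CPM in WT libraries (-2.05, edgeR adjusted p = 0.0225), the direction of Nkg7. Of 19 tested T lineage and innate lymphoid factors 1 fell, Notch1, the receptor that starts T cell development, with 34.5 and 48.3 CPM in Mut-labelled against 91.4 and 127 CPM in WT libraries (-1.40, edgeR adjusted p = 0.0390). It fell in total RNA too, at -1.04. None of 2 tested genes of the T cell receptor complex, 10 coreceptors and costimulatory genes or 6 NK receptors and factors was called by edgeR in mRNA libraries, with 1, 1 and 0 at an unadjusted p under 0.05. DESeq2 called 1 in the first list, Trbc1, lower, and none in the other lists. Trbc1, a constant gene of the receptor's beta chain, had 6 and 11 counts in Mut-labelled against 100 and 53 in WT libraries (-3.07, SE 0.67, edgeR adjusted p = 0.0792). Lyn lost its mRNA call without either WT replicate (adjusted p = 0.0802 and 0.101), Prkca without Mut-labelled replicate 2 (0.101) or WT replicate 1 (0.174), and Prkch with any 1 library left out (0.0847 to 0.142).

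**Figure D4:**
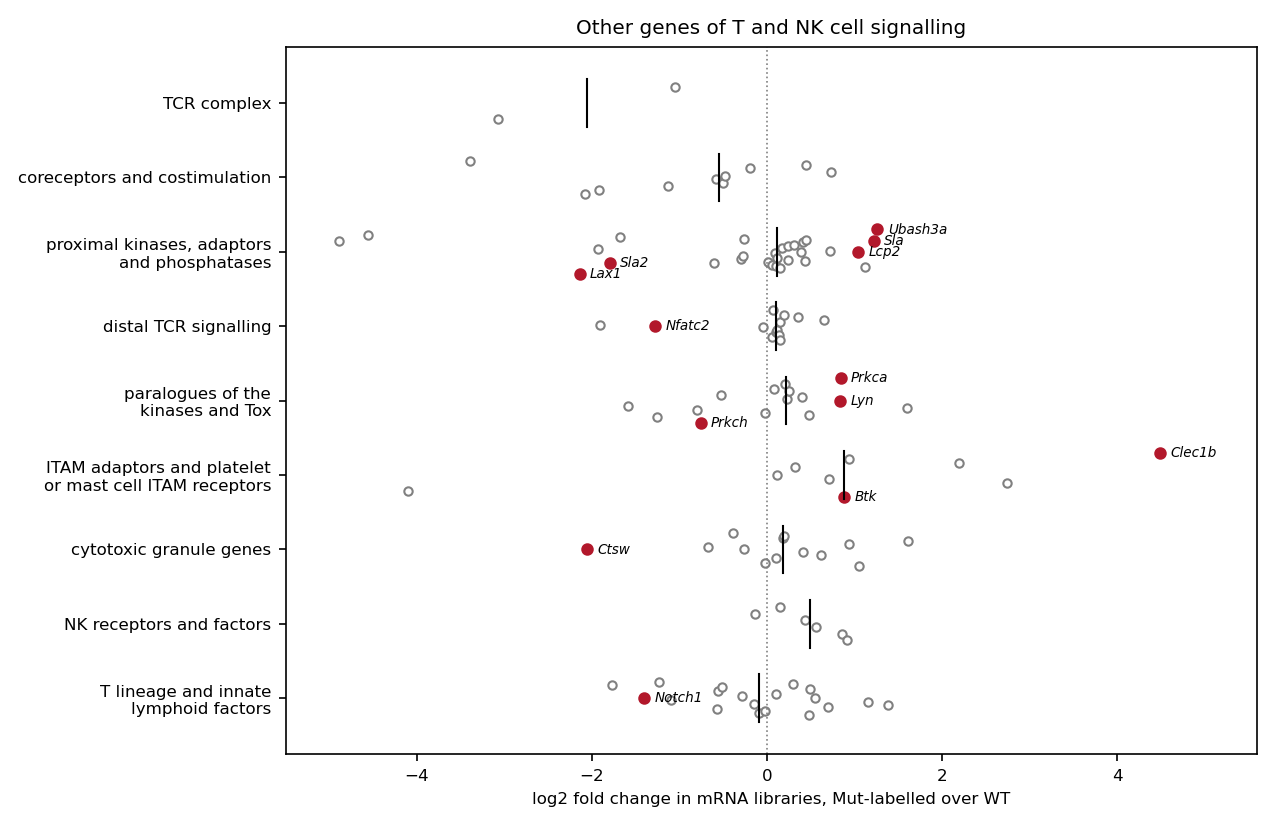
Log2 fold change in mRNA libraries, Mut-labelled over WT, of tested genes in 9 lists of T and NK cell signalling, with the median of the whole list as a bar and genes at an edgeR adjusted p under 0.05 filled and named. The named genes lie on both sides of 0, from -2.14 for Lax1 to 4.49 for Clec1b.

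Markers of mature T and NK cells were low in all 4 mRNA libraries. The 14 T cell markers summed to 12.9 and 12.4 CPM in Mut-labelled and 20.6 and 24.5 CPM in WT libraries, with 4 and 4 of them at 0 in Mut-labelled and 1 and 2 at 0 in WT libraries. Of these, Cd3d, a further CD3 chain, had 10 and 4 counts in Mut-labelled and 0 in both WT libraries. Trac, the constant gene of the alpha chain, had 0 and 8 counts in Mut-labelled and 11 and 4 in WT libraries. Other markers ran in the direction of Lck without passing the edgeR test. Trbc1 stood at 0.171 and 0.301 CPM in Mut-labelled and 2.64 and 1.39 CPM in WT libraries, and Trbc2, the second beta chain constant gene, at 0.629 and 0.356 CPM in Mut-labelled and 1.19 and 0.863 CPM in WT libraries. Cd6, a T cell surface receptor, stood at 0.257 and 0.137 CPM in Mut-labelled and 0.553 and 1.12 CPM in WT libraries. The 12 NK markers summed to 17.01 and 10.3 CPM in Mut-labelled and 9.54 and 9.58 CPM in WT libraries, while Nkg7 was at 65.6 and 53.0 CPM in WT. Of 9 T cell markers and 8 NK markers tested, edgeR called 0 and 0, with 2 and 1 at an unadjusted p under 0.05, and DESeq2 called 1 (Trbc1) and 0.

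Markers of some other cell types differed between the genotypes. Megakaryocyte and platelet markers summed to 2463 and 2206 CPM in Mut-labelled and 1023 and 950 CPM in WT libraries. Of 13 tested, 5 were called higher and 1 lower, beside 1.75% and 1.89% of all genes. Much of this sum was Itga2b, at 1345 and 1344 CPM in Mut-labelled and 337 and 318 CPM in WT libraries. The 1 called lower was Vwf (-1.31, edgeR adjusted p = 0.0309), and Pf4 (-1.20) and Gp1bb (-1.05) were lower without passing. Mast cell and basophil markers summed to 687 and 882 CPM in Mut-labelled and 185 and 125 CPM in WT libraries, with 3 of 8 higher and 2 lower. The mast cell and basophil sum was carried by few genes, above all Cpa3, a mast cell protease, with 455 and 514 CPM in Mut-labelled and 28.7 and 19.4 CPM in WT libraries. Il1rl1, Hdc and Ms4a2 were also higher in each Mut-labelled library. The proteases Prss34, with 1 and 0 counts in Mut-labelled and 2614 and 1693 in WT libraries, and Mcpt8 fell. Fcer1a, given above, was lower in each Mut-labelled library without passing the edgeR test. The median log2 fold change of the 8 was -0.72, and that of the 5 tested in total RNA was 2.97. Prss34, Cma1 and Fcer1a passed the filter in mRNA libraries through WT libraries alone, so the median of -0.72 is a description only. With ERCC scaling 0 rose and 2 fell (Prss34 and Cma1), while 0 megakaryocyte markers were called. Nothing is read from the calls of Prss34 and Cma1. Mature neutrophil markers summed to 530 and 167 CPM in Mut-labelled and 41.9 and 49.8 CPM in WT libraries, and erythroid markers to 475 and 358 CPM in Mut-labelled and 1404 and 1110 CPM in WT libraries. B and plasma cell markers differed more within a genotype than between them, at 128 and 692 CPM in Mut-labelled and 243 and 2690 CPM in WT libraries. Plasmacytoid dendritic cell markers summed to 224 and 209 CPM in Mut-labelled and 218 and 243 CPM in WT libraries. The part of these cell types in the values of the 10 genes was not tested, and in bulk samples fewer cells of a type and less RNA per cell cannot be told apart.

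**Figure D5:**
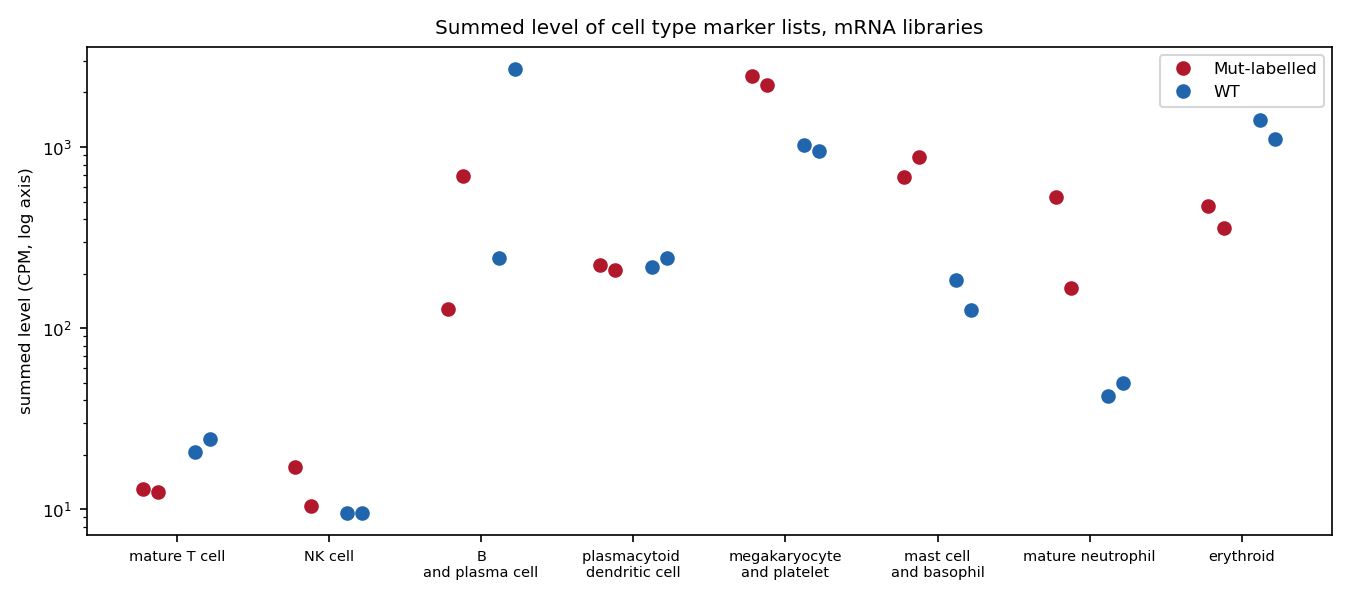
Summed level of 8 lists of cell type markers in each mRNA library, in CPM on a log axis, with Mut-labelled libraries on the left of each pair of groups. Mature T cell and NK cell markers lie between 9.54 and 24.5 CPM, while the summed levels of megakaryocyte and of mast cell markers are higher and that of erythroid markers lower in both Mut-labelled libraries. Few genes carry much of the megakaryocyte, mast cell and erythroid sums, above all Itga2b, Cpa3 and Car2.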

How the data were processed

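The authors deposited raw counts per gene and library as whole numbers. The submitters' processing notes name the build mm9 and the tools TopHat, featureCounts and edgeR, without versions or roles. Annotation, strand use and the treatment of multiply mapped reads are not stated in the sources used here, so reads of overlapping or near-identical genes may be split or lost. All 8 columns were matched to samples by name. The 92 ERCC and 3 ribosomal RNA entries were left out of gene totals and tests. Symbols and exon lengths came from GENCODE M21, which named 32919 of 37991 identifiers. Promoters came from RefSeq.

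For each kind of library, Mut-labelled libraries were set against WT with edgeR 4.0.16 (R 4.3.3), TMM scaling, its own filter on low counts (about 10 counts in 2 libraries), the two-sided quasi-likelihood test and Benjamini-Hochberg adjustment over all genes. Calls needed an adjusted p under 0.05. CPM used the scaled library sizes, and SE is the log2 fold change divided by the root of the F statistic. Ratios of few counts have exact binomial 95% intervals, which cover counting error only. Alternatives were DESeq2 1.42.0, its size factors, no filter, ERCC scaling, a replicate block and leaving out each replicate. The scripts were tested on simulated data. The total RNA libraries are far shallower, which limits them to genes with more counts. Libraries of a genotype differed by more than counting noise, which says nothing of separate animals, the chi-square of their counts per degree of freedom being 60.9 and 65.1 in Mut-labelled and WT mRNA libraries and 2.60 and 3.13 in total RNA.

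The 10 genes and all lists were chosen with earlier results of these data known. Named were the 10 genes, every gene of the lists called in either kind of library, the families of the kinases, adaptors and Tox, and markers beside a result. Some genes of the lists are counted but not reported here by name. Trbc1 was named after its values were seen. The symbols Trdc, Trgc1, Trgc2, Trgc4, Gads and Cd244 had no entry under these names.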

Additional observations from a re-analysis of the deposited data

How the results depend on the processing

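Of the genes called in mRNA libraries, Lck, Lat, Tox and Nkg7 kept their call and direction under every alternative but ERCC scaling, with adjusted p from 0.000228 to 0.0348 over the fits without 1 replicate. The 624 calls over all genes became 1500 with DESeq2, 170 with ERCC scaling and 2870 with a replicate block, and 602 to 815 without 1 replicate. The 445 calls in total RNA became 170 with DESeq2, 724 with no filter on low counts and 870 with a replicate block, and 386 to 598 without 1 replicate. ERCC scaling left 16 higher and 154 lower calls in mRNA libraries, against 300 and 324, and 13 and 360 in total RNA, against 268 and 177. Of the 10 genes, 1 was called with ERCC scaling in mRNA libraries and 5 with no filter in total RNA, beside 170 and 724 calls over all genes in these fits. The 1 was Gzmb, which had passed the filter through WT libraries alone. The 5 included Tox, with 1 and 1 counts in Mut-labelled samples, so these counts are descriptions only. The interaction gave 111 calls with a replicate block by sample and 0 to 1 without 1 replicate, the 1 being without Mut-labelled replicate 1. Between genotypes the replicate numbers, which the replicate block pairs, may only be names. Deviations of same-numbered libraries correlated at 0.323 in mRNA and 0.220 in total RNA libraries, with 2 pairs. Whether same-numbered samples shared a batch was not tested. With that block Gzmb (-5.17, adjusted p = 0.000556) and Prkcq (0.73, adjusted p = 0.000979) were also called in mRNA libraries and Nkg7 (-1.37, adjusted p = 0.00921) in total RNA.

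The following values turned sign. With ERCC scaling these were Btk (-0.31), Dgkz (-0.52), Lyn (-0.18), Prkca (-0.69) and Prkcq (-0.22) in total RNA, Zap70 in mRNA libraries (-0.037), and the interactions of Lat (-0.77), Lck (-0.31), Nkg7 (-0.95) and Prkcq (-0.46). With DESeq2 size factors the interactions of Lat (-0.039) and Nkg7 (-0.011) turned. Without 1 replicate, Zap70 ranged from -0.41 to 1.12 in mRNA libraries. The interactions without 1 replicate ranged from -6.97 to 0.28 for Cd247, -4.56 to 4.23 for Gzmb, -0.14 to 0.069 for Lat, -0.74 to 0.46 for Nkg7, -0.11 to 0.36 for Prkcq and -8.47 to 0.37 for Zap70. The cause was not tested. The CD3 chains, Zap70 and Gzmb had few counts, and the part of depth in their tests was not tested.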

Other observations

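Several genes of the lists were seen, after their values were known, to have lower counts in each Mut-labelled than in each WT mRNA library without passing the edgeR test. Txk, a Tec family kinase of T cells, had 1 and 0 counts in Mut-labelled and 18 and 13 in WT mRNA libraries. Themis, a T cell development gene, had 0 and 1 counts in Mut-labelled and 17 and 22 in WT libraries (edgeR adjusted p = 0.151). Tcf7, a factor of early T cells, had 161 and 118 counts in Mut-labelled and 335 and 364 in WT libraries (-1.23, SE 0.30, edgeR adjusted p = 0.108), and DESeq2 called it. In the other direction, Prf1, the pore-forming protein of the granules, had 80 and 81 counts in Mut-labelled and 15 and 41 in WT libraries (1.61, SE 0.61, edgeR adjusted p = 0.279), so that it stood above WT while Gzmb, Nkg7 and Ctsw stood below.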
